A study of Rattus norvegicus with 9 samples.

Results

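The cytosolic and mitochondrial heat shock system was followed in 9 rat livers through 10 genes: Hspa8, Hspa1b, Hspb1, Dnajb1, Hsph1, Hsp90aa1, Hspd1, Hspe1, Hsf1 and Cryab. Their probes were found by the RefSeq accession that the array files give each probe, matched to these symbols or their synonyms. Of the 10 genes, 9 had a matched probe, out of 13438 genes matched on the arrays, and they held 18 of the 41012 probes. The study asked how the liver of lethally irradiated rats responds to total-body irradiation (TBI), and whether Hong Shan Capsule (HSC), an oral preparation of medicinal herbs, alters that response. Male Wistar rats formed 3 groups of 3: untreated controls, rats exposed to 6.5 Gy TBI from a cobalt source, and rats given HSC into the stomach on 3 days before the same exposure (HSC + TBI). All livers were collected 24 h after exposure, and each was hybridized to 1 one-colour Agilent array. The HSC dose is 10 g/kg/day in the series text but 30 mg/kg/day in the sample labels. No group received HSC without TBI, so the HSC + TBI group was compared with irradiated and with untreated rats only.

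Heat shock proteins are chaperones that hold, fold or refold other proteins. Hsf1 is the transcription factor that drives them when unfolded proteins accumulate: it binds as a trimer to heat shock elements, which are runs of the unit GAA and its inverse TTC spaced by a pair of bases. Liver, which makes and secretes large amounts of protein, expresses the constitutive members of the system abundantly without stress.

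Promoters of 6 of the 10 genes were at hand in RefSeq (build GRCr8; 250 bases before and 50 after each start): Hspa8, Hspd1, Hspe1, Hsph1, Hspb1 and Dnajb1. The letters GAANNTTC or TTCNNGAA, a pair of facing units that reads on both strands, stood in 6 of these 6, in 18 of 72 other chaperone promoters (25.0%) and in 15.9% of all 33469 promoters. The longer runs GAANNTTCNNGAA or TTCNNGAANNTTC, each of which contains the shorter ones, stood in 4 of 6 (Hspa8, Hspd1, Hspe1 and Hsph1), in 4 of 72 other chaperone promoters (5.56%) and in 0.798% of all promoters. The stretches below are shown because these units are what the promoters share. The capitals mark the units, each stretch runs 5′ to 3′ on the strand of its gene, and a match of letters is a description and not a measured binding site. For Hspd1 and Hspe1, which lie head to head, the same 18 bases were found on opposite strands, and only these are printed. Both genes enter the counts above, so for this pair the counts rest on the same bases and not on separate sequences.
Hspa8, chr8:50080279-50080335, + strand: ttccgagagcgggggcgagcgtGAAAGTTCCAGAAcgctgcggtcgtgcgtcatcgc
Hspa8, chr8:50080437-50080493, + strand: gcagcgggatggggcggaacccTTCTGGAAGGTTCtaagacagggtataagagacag
Hsph1, chr12:10427310-10427366, + strand: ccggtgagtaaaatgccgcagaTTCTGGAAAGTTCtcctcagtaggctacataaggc
Hspd1, chr9:64084262-64084279, - strand: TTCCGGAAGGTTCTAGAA
Hspe1, chr9:64084262-64084279, + strand: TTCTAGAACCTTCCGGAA
Hspb1, chr12:26432401-26432452, - strand: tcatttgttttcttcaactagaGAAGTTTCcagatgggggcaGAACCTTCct
Dnajb1, chr19:41431142-41431174, - strand: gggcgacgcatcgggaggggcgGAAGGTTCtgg

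Positions count from the start that each promoter window uses, with the last base before it as -1. The runs of units lay at -55 to -43 and -213 to -201 for Hspa8 and at -36 to -24 for Hsph1. The shared run lay at -65 to -48 for Hspe1 and, from the start of its window, at -242 to -225 for Hspd1. The RefSeq entry of Hspd1, on the - strand, begins at base 64084332. The run at 64084262-64084279 therefore lies inside that entry and not upstream of it. Hspb1 held a pair of facing units at each of 2 places but no longer run, and the printed unit pair of Dnajb1 lay at -11 to -4.

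All levels below are quantile-normalized log2 signals of 1 probe, given rat by rat in the order of the replicate numbers. The level of one probe says nothing about the level of another. Differences are log2 fold changes between group means, fitted by limma over all 25369 tested probes with Benjamini-Hochberg adjustment over all of them. A probe was tested where some group had it well above background in each of its 3 rats, and called at an adjusted p under 0.05 and at least 1.5-fold. Tested probes were at hand for 8 of the 10 genes (17 probes). The p-values set a difference against the spread of rats within groups, pooled over the 3 groups and moderated with that of all tested probes. They rest on 3 rats a group, and an exact two-sided permutation test at this size cannot go below 0.1.

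The arrays differed in ways that lie beside the groups. TBI arrays had 63.6% to 69.5% of probes above background, against 56.6% to 59.3% for controls and 58.7% to 60.5% for HSC + TBI. The array of TBI rat 3 had the highest of these shares. Before normalization its 75th percentile of log2 signal was 8.70, against 7.59 to 7.98 on the other arrays. The 3 control arrays shared slide 1 and the 3 TBI arrays slide 2, while HSC + TBI rats 1 and 3 were on slide 3 and rat 2 was on slide 4. Slide and group therefore cannot be told apart. The hepatocyte markers bore out the labelled tissue, with 8 of 8 above background on all arrays.

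Hsp90aa1, the inducible cytosolic HSP90 that matures kinases and steroid receptors, was the one of these genes with called probes. Its 4 probes were higher in every irradiated rat than in every control rat, with or without HSC. On probe A_44_P135339 the controls were at 8.35, 8.65 and 8.58, the TBI rats at 9.39, 9.35 and 9.80, and the HSC + TBI rats at 9.82, 10.03 and 9.50. No irradiated rat overlapped a control, while the TBI and HSC + TBI rats overlapped each other. This probe rose by 0.99 after TBI (95% interval 0.57 to 1.40, 1.98-fold, limma adjusted p = 0.0154) and by 1.25 after HSC + TBI (0.84 to 1.67, 2.38-fold, adjusted p = 0.00905). It was also the only one of the 17 tested probes past the moderated F-test over the 3 groups (adjusted p = 0.0117), which 6.89% of all tested probes passed. In liver tissue, a change in the share of a cell type and a change of RNA in each cell cannot be told apart.

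On probe A_44_P114308 the controls were at 8.56, 8.83 and 8.54, the TBI rats at 9.55, 9.81 and 9.03, and the HSC + TBI rats at 9.64, 10.29 and 9.52. The order of the groups was the same, again with no overlap with the controls. This probe rose after HSC + TBI by 1.18 (0.60 to 1.75, 2.26-fold, limma adjusted p = 0.0442), while the difference after TBI was 0.82 (0.24 to 1.39, adjusted p = 0.0848).

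The brightest probe of Hsp90aa1, A_44_P261874, read 13.81, 13.80 and 13.97 in controls, 14.52, 14.71 and 14.59 after TBI, and 14.70, 15.32 and 14.26 after HSC + TBI. The TBI rats lay close together, whereas the HSC + TBI rats spread over more than the distance between the means of the other two groups. The differences from control were 0.74 (0.21 to 1.28, limma adjusted p = 0.0907) and 0.90 (0.36 to 1.43, adjusted p = 0.0812), and neither was called. Probe A_44_P299870 gave 0.85 (0.14 to 1.57, adjusted p = 0.134) and 0.83 (0.12 to 1.55, adjusted p = 0.192), likewise uncalled. Its controls were at 11.99, 12.28 and 11.87, and TBI rat 3 (12.29) and HSC + TBI rat 3 (12.47) were the irradiated rats nearest to them.

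With the 4 probes averaged into 1 value for the gene, Hsp90aa1 rose by 0.85 after TBI (limma adjusted p = 0.0424) and by 1.04 after HSC + TBI (adjusted p = 0.0345). Whether Hsp90aa1 is called therefore depends on the probe that stands for it. The call of A_44_P135339 after TBI was lost without control rat 1 (adjusted p = 0.0507) or control rat 3 (0.0502), and its call after HSC + TBI held without any one of the 9 rats. The call of A_44_P114308 after HSC + TBI was lost without any of the 3 controls (adjusted p = 0.0933, 0.0989 and 0.153 without controls 1, 2 and 3), without TBI rat 1 (0.0536) and without any of the 3 HSC + TBI rats (0.113, 0.12 and 0.0674 without rats 1, 2 and 3). With the methods' t-test adjusted over all probes, neither probe was called after HSC + TBI (adjusted p = 0.0862 and 0.13), nor A_44_P135339 after TBI (0.106), and without a filter on dim probes A_44_P114308 was not called (0.0868). On the brightest probe both differences from control were called without HSC + TBI rat 3 (adjusted p = 0.0473 and 0.0342), and that after TBI also without HSC + TBI rat 2 (0.0275).

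**Figure D1:**
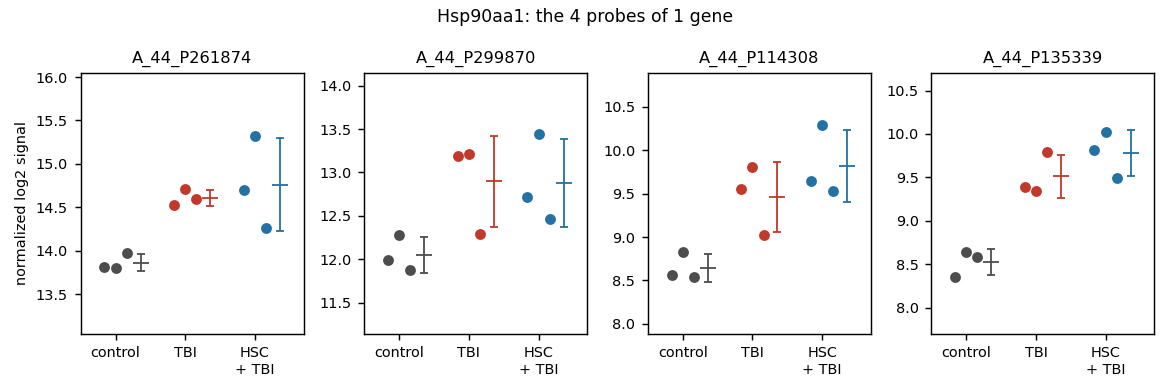
Normalized log2 signal (y axis) of the 4 Hsp90aa1 probes in each rat of the 3 groups (x axis; points are rats, and the bar beside them is the mean ± SD, n = 3). In each panel every TBI and HSC + TBI rat lies above all 3 controls, from 8.35 to 8.65 in controls against 9.35 to 10.03 in irradiated rats for A_44_P135339.

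Between the irradiated groups Hsp90aa1 did not pass the test. The difference of HSC + TBI from TBI ran from -0.02 to 0.36 over its 4 probes (limma adjusted p from 0.507 to 0.982), and for the brightest probe the interval was -0.38 to 0.69. As a fold change the interval runs from 0.77 to 1.61 and covers both directions.

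Hspa8, the constitutive cytosolic HSP70 (HSC70) that folds new proteins and strips clathrin from vesicles, was higher in irradiated than in control rats on its brightest probe but was not called. Its brightest probe read 13.73, 14.07 and 13.98 in controls, 14.33, 14.56 and 14.11 after TBI, and 14.51, 14.74 and 14.33 after HSC + TBI. The irradiated rats all lay above the controls, TBI rat 3 by the narrowest margin. The differences from control were 0.41 (95% interval 0.03 to 0.79, 1.33-fold, limma adjusted p = 0.166) after TBI and 0.60 (0.22 to 0.98, 1.52-fold, adjusted p = 0.0927) after HSC + TBI. Over the 4 probes of Hspa8 the difference after HSC + TBI was even, from 0.60 to 0.70, with no overlap of the rats on any of the 4.

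The Hspa8 probes disagreed after TBI alone. On 3 of them the difference was 0.35 to 0.41, while A_44_P396546 gave -0.03 (-0.56 to 0.49, limma adjusted p = 0.94). On that probe the controls were at 7.59, 8.08 and 8.18, the TBI rats at 7.89, 8.21 and 7.64, and the HSC + TBI rats at 8.53, 8.97 and 8.36. Here the HSC + TBI rats stood above both other groups, by 0.71 against TBI (0.19 to 1.23, 1.63-fold, adjusted p = 0.188), and the TBI rats overlapped the controls. The other 3 probes gave 0.19 to 0.36 for HSC + TBI against TBI, with overlapping rats.

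Hsph1 is an HSP110 that exchanges the nucleotide of HSP70 and keeps substrates from clumping. Its single probe read 6.79, 7.55 and 7.38 in controls, 7.98, 7.62 and 7.31 after TBI, and 7.80, 8.40 and 7.76 after HSC + TBI. The HSC + TBI rats did not overlap the controls, and the TBI rats did. The differences from control were 0.40 (-0.21 to 1.0, limma adjusted p = 0.389) and 0.75 (0.14 to 1.36, 1.68-fold, adjusted p = 0.171).

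For the inducible HSP70 genes Hspa1a and Hspa1b, a near-identical pair of paralogs, 1 probe was matched, and it was at the edge of detection. This probe, A_44_P109342, carries the accession of the RefSeq gene Hspa1a, which lists Hspa1b as a synonym. Whether it also detects Hspa1b RNA was not tested, and probes whose accession had no entry in the name table were not examined here. It was well above background on 1 of 3 control arrays, 2 of 3 TBI arrays and 2 of 3 HSC + TBI arrays, and was not tested. The values were 3.26, 4.28 and 4.04 in controls, 2.47, 5.67 and 4.20 after TBI, and 5.62, 5.45 and 3.68 after HSC + TBI. The rats of each irradiated group lay on both sides of a control rat. No probe was matched to Dnajb1, the J-domain protein that hands substrates to HSP70, and its level was not analysed here.

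Hspd1 and Hspe1, the 60 and 10 kDa subunits of the mitochondrial chaperonin, share the promoter region printed above. The brightest Hspd1 probe read 14.18, 14.14 and 13.98 in controls, 14.26, 14.30 and 14.47 after TBI, and 14.42, 14.46 and 14.42 after HSC + TBI. The single Hspe1 probe read 14.73, 14.43 and 14.51 in controls, 14.76, 14.84 and 14.77 after TBI, and 15.02, 14.90 and 14.90 after HSC + TBI. On these probes every irradiated rat lay above every control, by small amounts. On the Hspd1 probe A_44_P846589 the TBI rats overlapped the controls, with TBI rat 3 at 10.71 below controls 1 and 2 at 10.96 and 10.92.

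The Hspd1 differences from control were 0.24 (95% interval -0.01 to 0.49, limma adjusted p = 0.213) after TBI and 0.33 (0.08 to 0.58, 1.26-fold, adjusted p = 0.144) after HSC + TBI. For Hspe1 they were 0.23 (-0.03 to 0.50, adjusted p = 0.253) and 0.38 (0.12 to 0.65, 1.3-fold, adjusted p = 0.117). None was called, and the upper limits stayed below 1.57-fold for these probes. The other 3 probes of Hspd1 gave 0.14 to 0.44 after TBI and 0.36 to 0.54 after HSC + TBI, with adjusted p of 0.0752 at the lowest. All 5 chaperonin probes had a positive difference in all 3 comparisons.

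The remaining tested members were the small heat shock proteins Hspb1 (HSP27) and Cryab (αB-crystallin), which hold unfolding proteins without ATP, and Hsf1 itself. Hspb1 read 9.10, 9.25 and 10.16 in controls, 9.31, 9.58 and 9.25 after TBI, and 9.09, 9.44 and 9.65 after HSC + TBI. Control rat 3 was higher than all other rats, and the groups overlapped. The differences from control were -0.13 (95% interval -0.76 to 0.50, limma adjusted p = 0.807) and -0.11 (-0.74 to 0.52, adjusted p = 0.865), and without control rat 3 they were 0.20 and 0.22.

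Cryab differed from control by 0.09 (-0.32 to 0.50, limma adjusted p = 0.793) after TBI and by 0.13 (-0.28 to 0.54, adjusted p = 0.741) after HSC + TBI. Its controls were at 9.49, 9.29 and 9.61, and the irradiated rats, from 9.21 to 9.84, lay on both sides of them. Hsf1 differed by 0.03 (-0.27 to 0.33, adjusted p = 0.912) and 0.10 (-0.20 to 0.40, adjusted p = 0.729), with 9.10, 9.12 and 9.41 in controls and 9.10 to 9.41 in irradiated rats. For Hsf1 the intervals exclude a 1.5-fold rise. The arrays measure its RNA, and the activity of Hsf1 protein was not measured.

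Against TBI alone, HSC + TBI did not pass the test for any of these genes. Hsph1 differed by 0.35 (95% interval -0.26 to 0.96, limma adjusted p = 0.555), Hspe1 by 0.15 (-0.11 to 0.42, adjusted p = 0.555) and the brightest Hspd1 probe by 0.09 (-0.16 to 0.34, adjusted p = 0.719). Hspe1 was the single gene of the 8 whose HSC + TBI rats all lay above the TBI rats on the brightest probe. For Hspb1 the difference was 0.01 (-0.62 to 0.64, adjusted p = 0.985) and for Hsf1 0.07 (-0.23 to 0.37, adjusted p = 0.825).

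**Figure D2:**
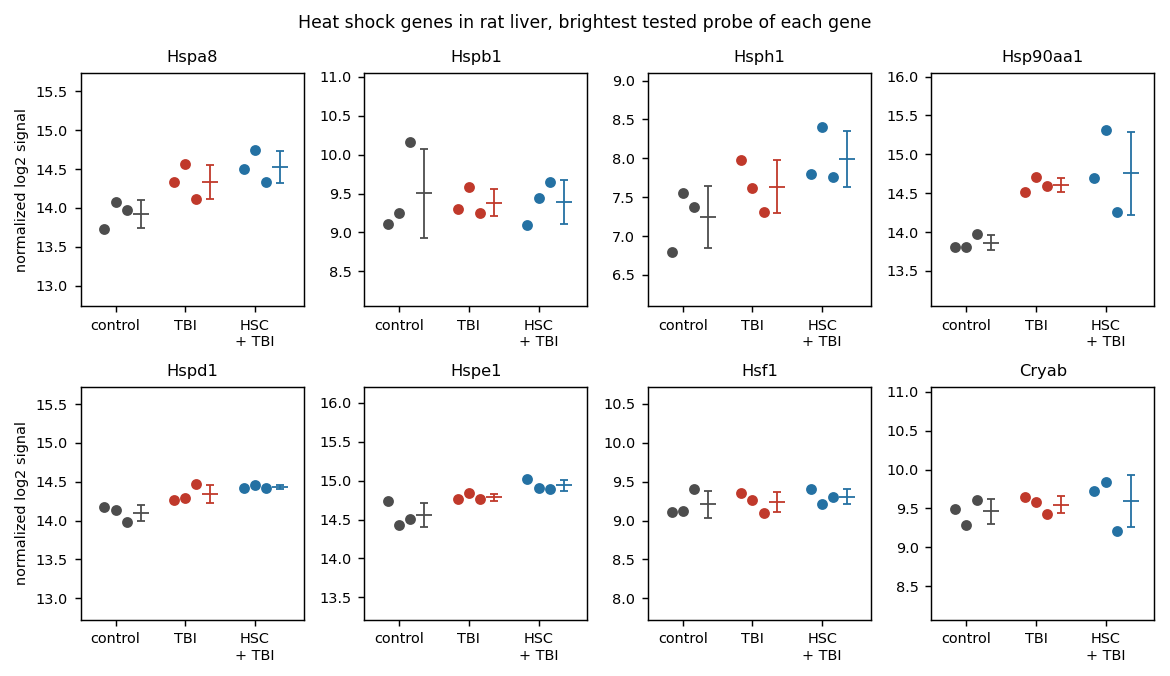
Normalized log2 signal (y axis) of the brightest tested probe of the 8 tested heat shock genes in each rat (points; bars are mean ± SD, n = 3) of the 3 groups (x axis). Hspa8, Hsp90aa1, Hspd1 and Hspe1 lie above the controls in every irradiated rat, while Hspb1, Hsf1 and Cryab overlap.

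Counted by the brightest probe, 0 of 8 genes were called by limma after TBI, while 7.79% of all 9604 tested named genes were called in that comparison. At an unadjusted p under 0.05 stood 2 of the 8, both higher. Of all named genes 26.1% did so in either direction, 1268 of them higher. After HSC + TBI 0 of 8 were called, against 3.88% of all named genes. An unadjusted p under 0.05 was found for 5 of 8, all higher. Of all named genes 21.9% had one in either direction, 979 of them higher. For HSC + TBI against TBI 0 of 8 were called, against 0.791% of all named genes, and 0 had an unadjusted p under 0.05, against 15.0%. By the methods' t-test, with its unadjusted p and the same minimum fold change, 1, 2 and 0 genes passed in these comparisons. The moderated F-test called 0 of 8, against 7.51% of all named genes. At its unadjusted p under 0.05 stood 4 of 8 and 26.9% of all named genes, and the methods' analysis of variance at an unadjusted p under 0.01 gave 1.

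Counted by probe, limma called 1 of 17 after TBI (7.25% of all tested probes) and 2 of 17 after HSC + TBI (3.23%). It called 0 of 17 between the irradiated groups (0.796%), where 1 had an unadjusted p under 0.05 (16.3% of all tested probes). Without overlap, the TBI rats were higher on 11 of the 17 probes, where 13.3% of all tested probes did the same. The HSC + TBI rats stood above the controls on 14 of 17 (18.0% of all probes) and above the TBI rats on 3 of 17 (12.7%). Probes of 1 gene share its RNA, so the 17 probes count 8 genes. By gene the counts without overlap were 4, 5 and 1 of 8, beside 1369, 1687 and 990 of all 9604 tested named genes.

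The median difference over the 8 genes was 0.24 after TBI, 0.36 after HSC + TBI and 0.12 for HSC + TBI against TBI. Over all 9604 tested named genes the medians were 0.01, 0.02 and 0.02. The 2 comparisons with control use the same 3 control rats, and a low value in them enters both.

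**Figure D3:**
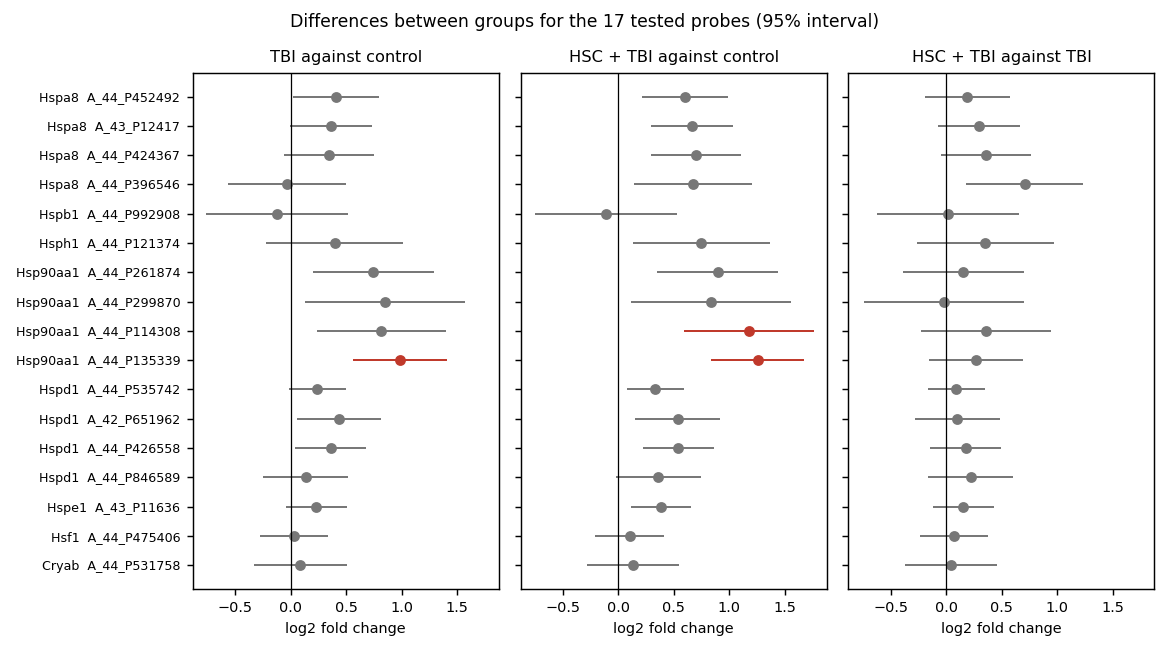
Log2 fold change (x axis) with its 95% interval (line) for the 17 tested probes of the 8 heat shock genes (y axis) in the 3 comparisons (panels), with called probes in red. Red marks 1 Hsp90aa1 probe for TBI against control and 2 for HSC + TBI against control, and for HSC + TBI against TBI all intervals but that of the Hspa8 probe A_44_P396546 include 0.

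Within the HSC + TBI group the rats kept much the same order from probe to probe: rat 2 was the highest on 13 of 17 probes and rat 3 the lowest on 14. In the TBI group rat 2 was the highest on 10 of 17. Probes of the same gene are not separate evidence of an order, and the order over all tested probes was not examined. HSC + TBI rat 2 was the rat on slide 4, and its distance from the others by slide and by animal cannot be told apart. Without it, Hsp90aa1's brightest probe differed from control by 0.62 and Hspa8's by 0.49 after HSC + TBI.

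Markers of other liver cells were followed beside these genes, and of those tested only Lrat, after TBI, was called. Leukocyte markers with a probe numbered 7, of which 6 were above background on all arrays, with Cd3e untested. Their summed linear signal was 8218 to 12268 in controls, 9468 to 19113 after TBI and 5904 to 7352 after HSC + TBI. Cd68, the brightest of them, weighs most in this sum. After TBI 4 of the 6 tested markers had a positive difference from control, while Ptprc (-0.21) and S100a8 (-0.08) had a negative one. After HSC + TBI 0 of the 6 had a positive difference, and 0 of the 6 were called in any comparison. Against TBI, however, 6 of 6 were lower in HSC + TBI without overlap of the rats, with a median of -1.12. Those 6 also had an unadjusted limma p under 0.05. Of all 9604 tested named genes, 1057 were lower without overlap and 903 were lower at that p. The 2 endothelial markers with a probe, both above background on all arrays, summed to 1855 to 2384 in controls, 2759 to 3329 after TBI and 2741 to 2988 after HSC + TBI. That sum is carried by Lyve1 (0.53 after TBI, limma adjusted p = 0.0469, and 0.40 after HSC + TBI, adjusted p = 0.147), while Pecam1 differed from control by 0.12 (adjusted p = 0.794) and -0.40 (adjusted p = 0.4). The 2 erythroid markers with a probe, both above background on all arrays, summed to 1765 to 4349 in controls, 887 to 2358 after TBI and 723 to 1459 after HSC + TBI. Of them, Hbb differed from control by -1.30 and -1.59 and Alas2 by -1.15 and -1.96 (adjusted p from 0.0924 to 0.225). The 4 stellate cell markers summed to 3233 to 4321 in controls, 2784 to 3770 after TBI and 3427 to 4025 after HSC + TBI. Of them, Lrat fell after TBI by 0.63 (limma adjusted p = 0.0237). The others were not called and differed by -0.03 (Des), 0.40 (Reln) and 0.31 (Rgs5) after TBI. The 3 cholangiocyte markers with a probe, 2 of them above background on all arrays, had overlapping sums. These were 469 to 559 in controls, 371 to 706 after TBI and 441 to 507 after HSC + TBI. The hepatocyte markers summed to 1357520 to 1430050 in controls, 1310720 to 1443640 after TBI and 1359960 to 1446900 after HSC + TBI. The part of these cells in the results was not tested.

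Among the other chaperone genes, 84 in 8 lists by role, 75 had a probe and 68 were tested. After TBI 5 of the 68 rose and 2 fell, where 7.79% of all tested named genes were called. At an unadjusted p under 0.05 stood 13 higher and 10 lower, beside 26.1% of all tested named genes. The rising genes were the J-domain co-chaperones Dnajb4, Dnajb5 and Dnajc5, the nucleotide exchange factor Bag5 and the lens small heat shock protein Cryaa. The falling genes were Bag3, which couples HSP70 to selective autophagy, and Hspb6, a small heat shock protein known from muscle. After HSC + TBI 0 of 68 were called by limma, where 3.88% of all named genes were called. There 12 stood higher and 3 lower at an unadjusted p under 0.05, beside 21.9% of all named genes, and 2 passed the methods' t-test. For HSC + TBI against TBI 1 fell, Cryaa, beside 0.791% of all named genes called.

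Dnajb4, which stimulates the ATPase of HSP70, was at 6.79, 7.52 and 6.44 in controls, 7.91, 8.47 and 7.97 after TBI, and 7.75, 7.87 and 7.53 after HSC + TBI. The TBI rats all lay above the controls, and the HSC + TBI rats lay between. It rose after TBI by 1.20 (95% interval 0.58 to 1.83, 2.30-fold, limma adjusted p = 0.0332), and the difference after HSC + TBI was 0.80 (adjusted p = 0.155). Dnajb5 rose by 0.66 (adjusted p = 0.0213) and Dnajc5, a J protein of secretory vesicles, by 0.74 (adjusted p = 0.0306). A dimmer Dnajb5 probe, A_44_P344906, was not called (0.82, adjusted p = 0.189), nor was the mean of the Dnajb5 probes (0.74, adjusted p = 0.0745). After HSC + TBI Dnajb5 and Dnajc5 differed from control by 0.21 (adjusted p = 0.431) and 0.28 (adjusted p = 0.393). Bag5 rose by 0.67 after TBI (adjusted p = 0.0362), with 0.39 after HSC + TBI (adjusted p = 0.216). Compared directly, HSC + TBI against TBI was not called for any of these genes. The differences were -0.40 for Dnajb4 (limma adjusted p = 0.511), -0.45 for Dnajb5 (0.162), -0.46 for Dnajc5 (0.221) and -0.28 for Bag5 (0.423).

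Bag3 was at 11.65, 11.67 and 11.61 in controls, 11.27, 11.05 and 10.84 after TBI, and 11.34, 11.34 and 11.45 after HSC + TBI. Both irradiated groups lay below all controls. It fell by 0.59 after TBI (95% interval -0.88 to -0.30, limma adjusted p = 0.0273), with -0.27 after HSC + TBI (adjusted p = 0.288). Hspb6 fell by 0.93 after TBI (adjusted p = 0.0166), with -0.74 after HSC + TBI (adjusted p = 0.0607). Bag3 and Hspb6 thus ran opposite to Hsp90aa1 and Dnajb4 in the same rats. Compared directly, HSC + TBI differed from TBI by 0.32 for Bag3 (limma adjusted p = 0.262) and by 0.19 for Hspb6 (adjusted p = 0.625), and neither was called.

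Cryaa, αA-crystallin, was dim but above background on all 9 arrays. Its levels were 4.32, 4.52 and 4.30 in controls, 5.89, 5.89 and 5.76 after TBI, and 4.35, 3.95 and 4.72 after HSC + TBI. The TBI rats stood apart from all others. It rose by 1.46 after TBI (95% interval 1.04 to 1.89, 2.76-fold, limma adjusted p = 0.00379) and was lower after HSC + TBI than after TBI by 1.51 (-1.93 to -1.08 as a difference, adjusted p = 0.0153). With another background correction the differences were 0.44 and -0.44, below 1.5-fold. Its relative Cryab, on another probe, differed by 0.04 between the same groups (-0.37 to 0.45, adjusted p = 0.928).

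The count of 7 after TBI moved with single rats: it was 2, 4 and 1 without controls 1, 2 and 3 and 3 without TBI rat 2. Of the 7 genes, Cryaa alone was called without any one of the 9 rats. Dnajb4 was lost without control 1 (adjusted p = 0.0925), control 3 (0.0979), TBI rat 2 (0.093) or HSC + TBI rat 1 (0.0557), and Hspb6 without control 3 (0.0507). Without a rat, Dnajb5 was called in 6 of 9 fits, Bag3 in 4, and Dnajc5 and Bag5 in 2. With normexp background correction 2 of the 7 were called, Dnajb4 and Bag3.

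**Figure D4:**
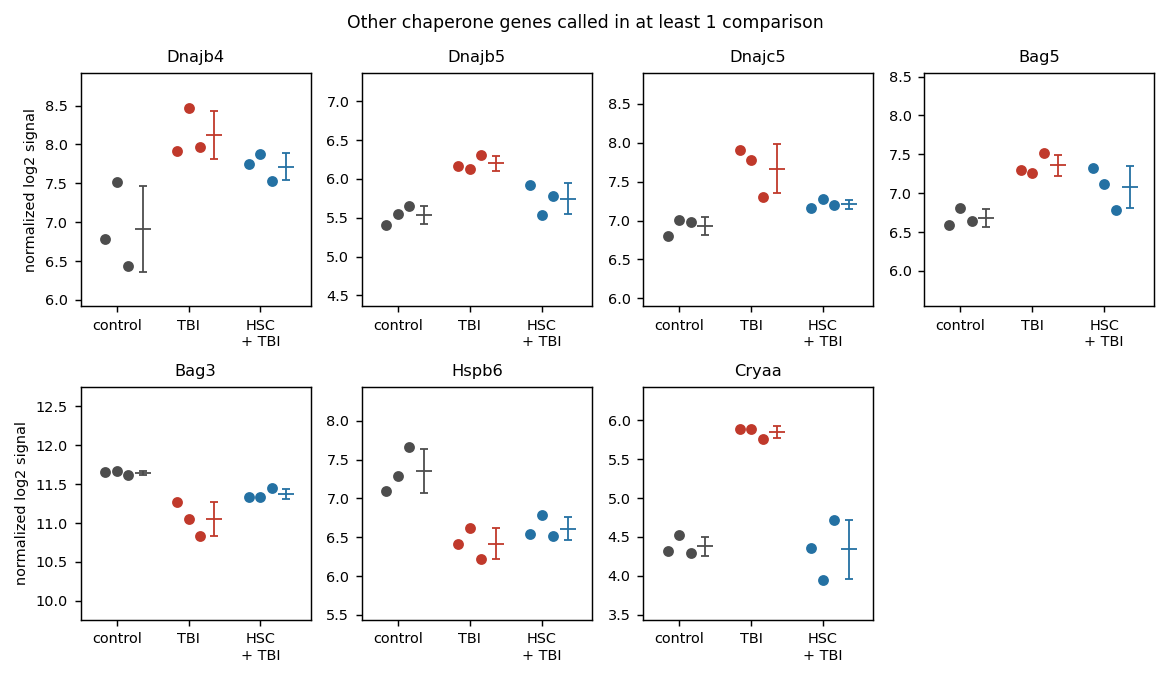
Normalized log2 signal (y axis) of the 7 other chaperone genes called in at least 1 comparison, in each rat (points; bars are mean ± SD, n = 3) of the 3 groups (x axis). The mean of Cryaa is 5.85 in TBI rats against 4.38 in controls and 4.34 in HSC + TBI rats, whereas Hspb6 and Bag3 are lower than control in both irradiated groups.

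By role, the median difference after TBI was 0.26 for the 13 tested J-domain co-chaperones, -0.26 for the 6 nucleotide exchange factors, 0.24 for the 4 small heat shock proteins and -0.11 for the 13 mitochondrial chaperones and proteases. It was 0.08 for the 11 chaperonin and prefoldin subunits of the cytosol, 0.03 for the 11 tested genes of HSP90 and its co-chaperones, 0.03 for the 4 of the HSP70 and HSP110 family and 0.04 for the 6 heat shock factors and regulators. Apart from the 3 J-domain, 2 exchange-factor and 2 small heat shock genes above, no gene of these 8 lists was called after TBI by its brightest probe. A dimmer probe of the J-domain gene Dnajc9, A_44_P194439, fell by 0.67 (limma adjusted p = 0.0146), while its brightest gave -0.50 (adjusted p = 0.0702). This probe was named after its values were seen. Over all 68 the median was 0.05 after TBI and 0.11 after HSC + TBI. In the list of mitochondrial chaperones, which act beside Hspd1 and Hspe1, 4 of 13 had a positive difference after TBI and 6 of 13 after HSC + TBI.

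**Figure D5:**
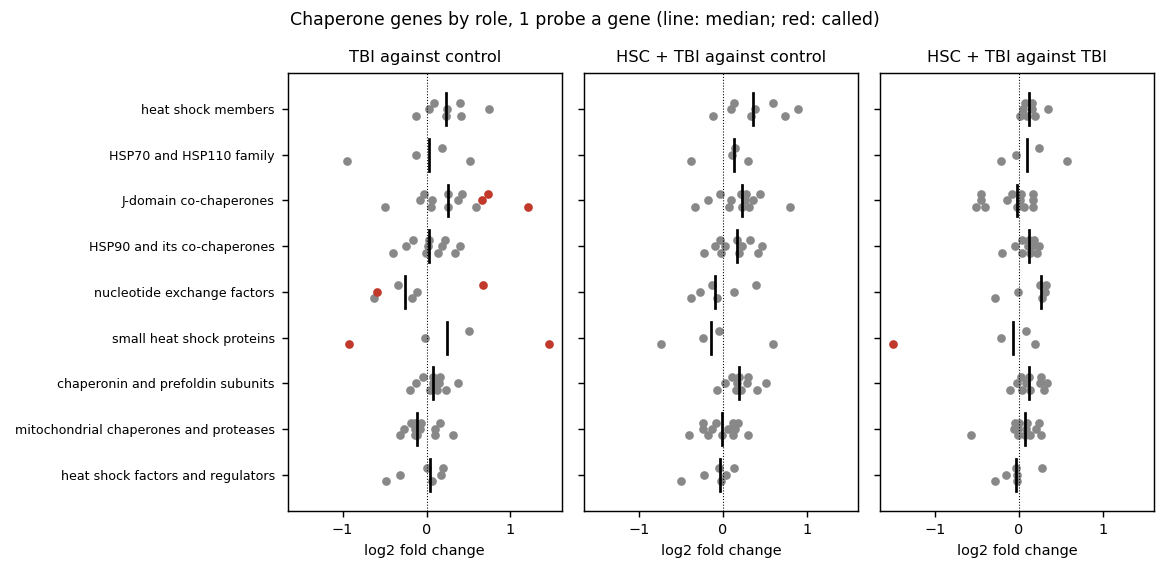
Log2 fold change (x axis) of each tested gene (point, 1 probe a gene) in the heat shock genes and the 8 other chaperone lists (y axis; the line is the list's median) for the 3 comparisons (panels), with called genes in red. The heat shock genes lie to the right of 0 in most cases, with medians of 0.24, 0.36 and 0.12, without a called gene.

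The named genes whose levels ran most like Hspa8 over the 9 arrays, outside the 10 genes, were Tmprss4 (Pearson r = 0.96), Serpina10 (0.96), Slc25a17 (0.95), Hivep3 (0.95) and Or2d36b (0.95). For the Hspa1a/Hspa1b probe they were Prlr (0.93), Aebp1 (0.92), Eml2 (0.88), C3 (0.87) and Helz (0.86). These were picked as the highest over all tested named genes, on 9 arrays that share groups and slides, and carry no test.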

How the data were processed

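Liver RNA of 9 rats was measured on one-colour 4x44K arrays. The authors read spot intensity with Agilent Feature Extraction (10.7.3.1 per the file headers), quantile-normalized it and deposited 1 log2 value per probe. Here the deposited processed intensity, floored at 1, was put on the log2 scale, quantile-normalized over 9 arrays without control and outlier spots, and averaged per probe. All columns belonged to the series. Gene names came by unversioned accession from RefSeq (GRCr8), for 16968 of 41012 probes, and a gene was represented by its brightest tested probe. Above background means that over 0.5 of a probe's spots carried that flag. Groups were compared by limma 3.58.1 in R 4.3.3, in 1 fit of 3 group means, at an adjusted p under 0.05 and at least 1.5-fold, and the script was tested on simulated data. The study's own tests, called the methods' t-test and the methods' analysis of variance, were run on the same values. The number of arrays limits the precision. One leukocyte marker is not reported here.

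The members, lists and tests were chosen with earlier results of these data known. Named genes were all 10 members with every probe, the called genes of the other chaperone lists (at most 4 a list), and the 5 genes most like Hspa8 and the Hspa1a/Hspa1b probe. Alternatives were a 75th percentile shift, normexp (offset 50), the authors' values, other filters, the compared groups alone, the methods' tests, no minimum fold change, the replicate number or slide as a block, each rat left out, and the mean of a gene's probes.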

Additional observations from a re-analysis of the deposited data

Results flagged for a closer look

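Cryaa was the one gene of the heat shock and other chaperone lists that differed between the irradiated groups by the fit's own test of that difference: the log2 fold change of HSC + TBI against TBI was -1.51 (limma adjusted p = 0.0153), lower in 3 of 3 rats. The call was lost without TBI rat 2 (adjusted p = 0.0642) and without HSC + TBI rat 1 (adjusted p = 0.0675). Over the alternatives the difference ran from -1.70 to -0.44, with adjusted p from 0.0011 to 0.25.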

How the results depend on the processing

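The counts of called genes rested on values near the threshold. Against 0 in the chosen analysis, the heat shock genes called after TBI and after HSC + TBI were 1 and 2 with the 75th percentile shift, 1 and 2 with the methods' t-test unadjusted, 1 and 2 with the slide as a random block, and 1 and 1 with the mean of a gene's probes. Normexp gave 1 after HSC + TBI and the compared groups alone gave 1 after TBI. Genes differing among the 3 groups, also 0 in the chosen analysis, were 2 with the percentile shift, 1 with normexp, 1 with the methods' analysis of variance, 5 with the slide as a random block and 1 with the mean of probes. Leaving out each rat gave 0 to 1 after TBI, 0 to 1 after HSC + TBI and 0 to 1 among the 3 groups. For HSC + TBI against TBI the count was 0 under every alternative run. The other chaperone genes called after TBI, 7 in the chosen analysis, were 2 with normexp, 4 with the compared groups alone, 1 with the methods' t-test adjusted, and 1 to 6 without a rat. After HSC + TBI, 0 in the chosen analysis, they were 1 with the percentile shift, 1 with the compared groups alone, 2 with the methods' t-test unadjusted, 3 with the slide as a random block and 0 to 1 without a rat. For HSC + TBI against TBI, 1 in the chosen analysis, they were 0 with normexp, 0 with the compared groups alone, 0 with the methods' t-test adjusted and 0 to 2 without a rat. The slide block cannot adjust for slide, because the control rats shared a single slide and the TBI rats another. The causes were not tested. Signs turned for differences near 0 when a rat was left out. Hspb1 ran from -0.33 to 0.20 after TBI, -0.31 to 0.22 after HSC + TBI and -0.11 to 0.17 between the irradiated groups. Hsf1 ran from -0.031 to 0.13 after TBI and from -0.0001 to 0.13 between the irradiated groups. There Cryab ran from -0.081 to 0.23 and Hsp90aa1 from -0.13 to 0.40. The percentile shift moved the share of higher calls among all probes for HSC + TBI against TBI from 29.2% to 13.7%, and normexp, with 6 calls, to 66.7%. The 2 called Hsp90aa1 probes beside the brightest were followed after their values were seen. Cryaa, on a dim probe, moved from 1.46 to 0.44 after TBI with normexp.

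Replicate numbers did not pair the rats: rats of the same number deviated together with correlations of 0.19, 0.12 and 0.10 between TBI and control, and of -0.14, -0.02 and -0.03 between HSC + TBI and TBI. With the replicate number as a block, 4 other chaperone genes were called after TBI and 0 for HSC + TBI against TBI, and 0 heat shock genes in each comparison. The random block for the slide had an estimated correlation of -0.33. A negative correlation makes the standard error smaller for a group that lies on a single slide. The higher counts with this block are therefore no correction for slide.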
